A study of Homo sapiens with 8 samples.

Results

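The genes followed here encode plasma proteins that the liver typically makes and secretes, measured in 2 human cell lines with and without a short hairpin RNA (shRNA) against GATA6. A list of 38 gene symbols was matched to the platform's probe table, and 35 of them had a probe set that carried that symbol alone, out of 11963 genes named on the array. The probe set with the highest mean over the 8 arrays stood for each gene. VTN, GC and APCS are not analysed here.

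Expression was measured on Affymetrix human arrays in 4 groups of 2 arrays each, HUG1N shRNA, HUG1N control, Caco-2 shRNA and Caco-2 control. HUG1N, written HuG-1 in the cell line label, is a gastric cancer line, and Caco-2, from a colorectal adenocarcinoma, takes on enterocyte features in culture. Per the labels' protocols, cells received the GATA6 shRNA by infection and were then selected with puromycin. The labels give neither the hairpin nor the length of selection, nor what the control cells received. They also do not say that the arrays within a group are separate cultures, so each p-value covers only array-to-array spread, which could be purely technical.

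Hepatocytes release most plasma proteins, among them carriers, clotting factors, protease inhibitors and complement components. Their genes are read in liver under factors that include the FOXA and C/EBP families, and several of them, AFP above all, are also active in the yolk sac and fetal endoderm. GATA6 is a zinc-finger transcription factor of endoderm that binds short DNA words built around GATA. In the acute phase response, interleukin-6 raises the fibrinogen, haptoglobin and complement genes in liver and lowers albumin and transthyretin.

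GATA6 had log2 values of 12.26 and 12.22 in HUG1N shRNA against 12.54 and 12.45 in HUG1N control, and of 12.23 and 12.02 in Caco-2 shRNA against 12.63 and 12.45 in Caco-2 control. The shRNA arrays were below the control arrays in both lines, by a small amount. The log2 change was -0.25 (SE 0.10, limma adjusted p = 0.0879) in HUG1N and -0.42 (SE 0.10, limma adjusted p = 0.0224) in Caco-2, where 74.9% of the control level was left.

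Of the 35 genes, 23 exceeded a log2 value of 4 on at least 1 Caco-2 array and 6 on at least 1 HUG1N array. A value of 4 was used as the level below which a gene is called not clearly above background, since all arrays shared a lowest value of 2.08. In Caco-2, 19 of the 35 genes were over 4 on all 4 arrays, and in HUG1N 3 were, C3, CFB and C4BPB. The other genes over 4 somewhere in HUG1N were RBP4, AHSG and CP. The 11 genes over 4 on no array, between 2.08 and 3.05 throughout, were SERPINA3, SERPIND1, HPX, ITIH1, ITIH3, ITIH4, F13B, PLG, AMBP, A2M and HRG. They include the haem carrier hemopexin (HPX), plasminogen (PLG), heparin cofactor II (SERPIND1) and the clotting factor XIII B subunit (F13B).

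**Figure D1:**
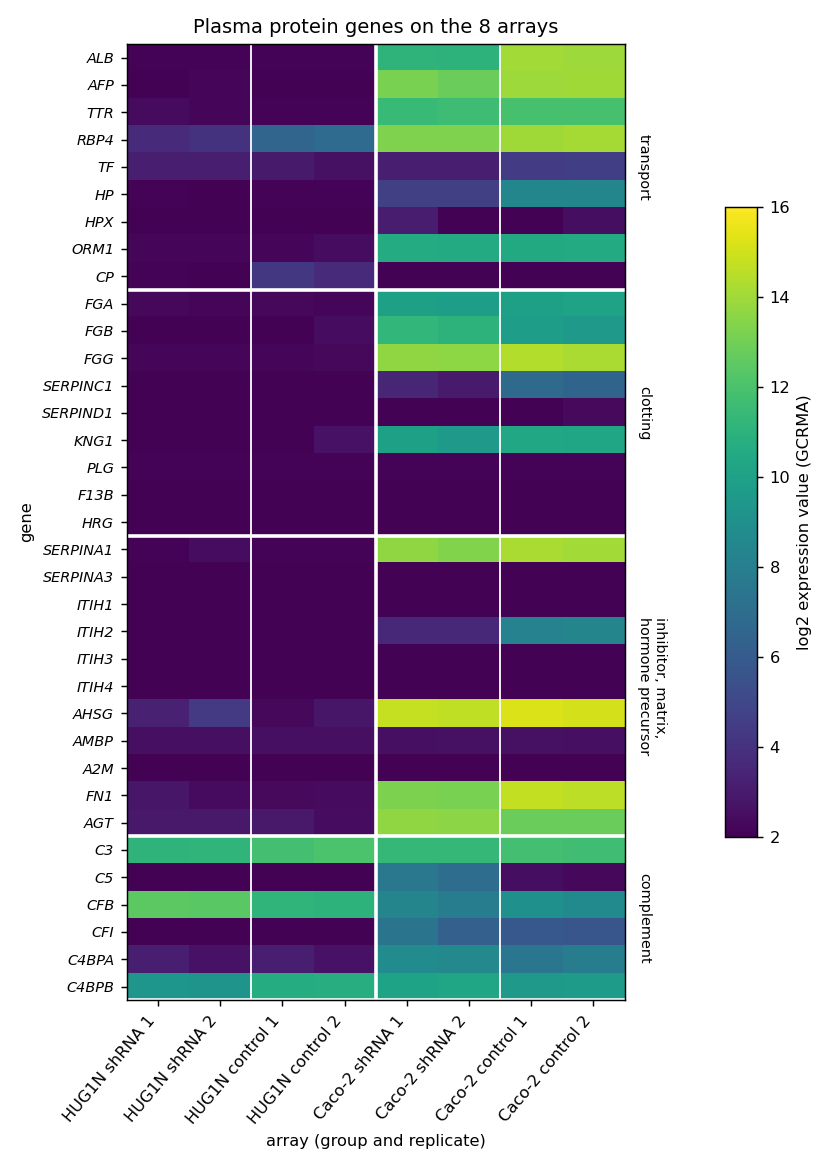
Log2 expression value of each plasma protein gene (rows, grouped by role) on each of the 8 arrays (columns, in the order HUG1N shRNA, HUG1N control, Caco-2 shRNA, Caco-2 control), with colour as the log2 value. In the HUG1N columns 6 genes reach log2 4 on at least 1 array, and in the Caco-2 columns 23 do; colours compare arrays within a row, not genes with each other.

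In HUG1N, 18 of the 23 tested genes had no array over 4 and lay between 2.08 and 3.17. A gene was tested if it was over 4 on at least 2 of all 8 arrays, so these 18 entered through Caco-2 alone. The HUG1N control level was at least 1.44-fold lower than the Caco-2 control level for TF and at least 2353-fold lower for AHSG, the ends of the range over 18 genes with such a bound. A bound sets the mean of the brighter group against log2 4 and makes no allowance for the spread of the brighter group. In the comparison of HUG1N control with Caco-2 control, limma called 19 tested genes lower in HUG1N, 2 higher and 2 not, against 41.3% lower and 37.1% higher, 78.4% in all, over the 7696 genes tested. As most of these genes entered the test through Caco-2, nothing is read from this count.

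In Caco-2, limma called 13 of the 23 tested genes lower and 6 higher in shRNA than in control cells, and 4 were not called. Over all genes tested, 19.2% were called lower and 19.5% higher, 38.7% in all. All 23 genes were over 4 on at least 2 Caco-2 arrays. The genes tested in all include some that entered through HUG1N alone, so nothing is read from this count beside those shares. The median log2 change of the 23 genes was -0.59 as fitted and -0.53 with genes not above background in 1 group at their bound, and that of all genes tested was -0.00304 as fitted. The same limit holds for these medians, and 4 of the 23 genes had to differ, as given below, so nothing is read from their gap. By measured change or bound, the largest called falls were those of ITIH2, HP, ALB and SERPINC1. SERPINC1 has only a bound, so its place among them is not fixed. The largest called rise was that of C5. TF, SERPINC1 and ITIH2 passed the filter through the control arrays alone and C5 through the shRNA arrays alone, so these 4 had to differ between the groups. These are bulk samples, in which fewer cells of a type and less RNA per cell cannot be told apart. Without Caco-2 control replicate 1, 9 genes were called lower and 4 higher, and the call count over all genes was 1985, against 2982 with all arrays. Without Caco-2 control replicate 2 it was 1895, with 11 of the plasma protein genes lower and 5 higher.

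**Figure D2:**
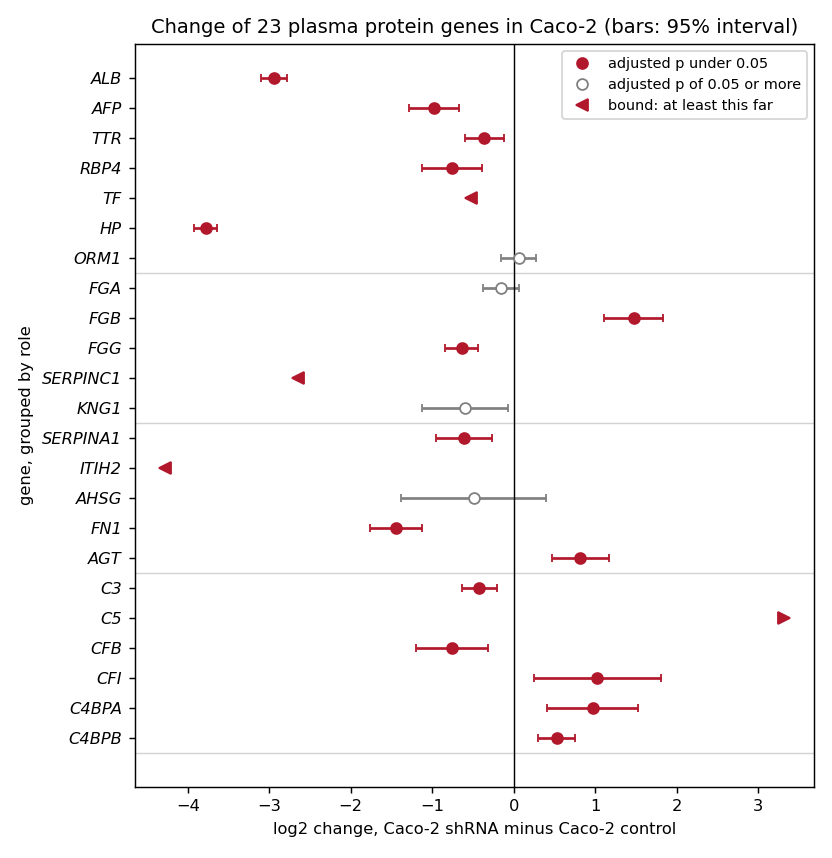
Log2 change of each tested plasma protein gene in Caco-2, shRNA minus control, grouped by role. Circles are fitted changes with bars for the 95% limma interval, filled where the adjusted p is under 0.05, and triangles are bounds for genes with no array over log2 4 in 1 group. HP and ALB lie at -3.78 and -2.94, the triangles of ITIH2 and SERPINC1 at -4.27 and -2.65, and that of C5 at 3.31.

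Albumin, the main carrier protein of plasma, fell in Caco-2. ALB had log2 values of 11.11 and 11.05 in Caco-2 shRNA against 14.07 and 13.97 in Caco-2 control. The groups lay far apart, and the level was 7.68-fold lower in shRNA (log2 change -2.94, 95% interval -3.10 to -2.78, SE 0.07, limma adjusted p = 2.81e-06). Another probe set of ALB read 2.12 on both shRNA arrays against 6.52 and 5.43 in control. All HUG1N arrays read 2.13 for ALB. The SE pools the spread of all 4 groups, so HUG1N arrays without spread can make the Caco-2 SE and adjusted p too small. The same holds for other genes at the lowest values in HUG1N, such as SERPINC1, ITIH2 and C5.

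The gene next to ALB on chromosome 4 is AFP, alpha-fetoprotein, the albumin relative of the fetal liver and yolk sac. AFP read 13.19 and 12.82 (log2) in Caco-2 shRNA against 13.97 and 14.00 in Caco-2 control. It fell to 50.6% of control (log2 change -0.98, SE 0.13, limma adjusted p = 0.00191), a smaller change than that of its neighbour. A test of the difference between the genes was not run. Transthyretin (TTR), which carries thyroxine and the retinol-binding protein, read 11.50 and 11.65 against 11.93 and 11.94 in control. Its log2 change of -0.36 (SE 0.10) had a limma adjusted p of 0.0303, which was 0.135, 0.107 and 0.116 without Caco-2 shRNA replicate 1, Caco-2 control replicate 1 and Caco-2 control replicate 2, and 0.0508 without HUG1N control replicate 1 or 2.

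RBP4, the plasma carrier of retinol, was called in both lines. Its log2 values were 3.70 and 4.04 in HUG1N shRNA against 6.56 and 6.91 in HUG1N control, and 13.31 and 13.31 in Caco-2 shRNA against 14.03 and 14.11 in Caco-2 control. The shRNA arrays of HUG1N lay at the detection level, with 1 of 2 over log2 4, while the gene stayed high in Caco-2. RBP4 fell by 2.86 on the log2 scale in HUG1N (SE 0.15, limma adjusted p = 8.16e-05) and by 0.76 in Caco-2 (SE 0.15, limma adjusted p = 0.0106). The Caco-2 call was lost without Caco-2 shRNA replicate 1 (limma adjusted p = 0.0525), Caco-2 shRNA replicate 2 (0.0511) or Caco-2 control replicate 2 (0.0614).

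Haptoglobin (HP), which binds free haemoglobin, fell to 7.27% of control in Caco-2. HP read 4.65 and 4.64 in Caco-2 shRNA against 8.44 and 8.42 in Caco-2 control on the log2 scale (change -3.78, SE 0.06, limma adjusted p = 6.70e-07). Its probes may also read the near-identical HPR. Transferrin (TF), the iron carrier, read 3.17 on both Caco-2 shRNA arrays against 4.45 and 4.60 in control, at least 1.44-fold lower (limma adjusted p = 7.02e-04). TF entered the test through the Caco-2 control arrays alone, so it had to differ. The acid glycoprotein gene ORM1, an acute phase gene whose probes may also read ORM2, read 10.63 and 10.55 in Caco-2 shRNA against 10.49 and 10.56 in control. These values overlapped, and the interval of the log2 change ran from -0.15 to 0.27 (limma adjusted p = 0.630). Ceruloplasmin (CP), the copper-carrying ferroxidase, read 2.16 and 2.08 in HUG1N shRNA, 4.25 and 3.67 in HUG1N control, and 2.08 on all Caco-2 arrays; over 4 on a single array, it was not tested.

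Fibrinogen is built from an alpha, a beta and a gamma chain, whose genes FGA, FGB and FGG lie side by side on chromosome 4. In Caco-2, FGB rose and FGG fell, while the probe sets of FGA disagreed. The promoter windows of the 3 genes are therefore shown with those of ALB and C5, a gene with a large fall and a gene with a large rise. Each window runs from 250 bases before to 50 after the gene's start, on the gene's own strand, as RefSeq gives it on GRCh38.p14. Capitals mark GATA words, which are GATA with A or T before it and A or G after it, searched on either strand.
ALB: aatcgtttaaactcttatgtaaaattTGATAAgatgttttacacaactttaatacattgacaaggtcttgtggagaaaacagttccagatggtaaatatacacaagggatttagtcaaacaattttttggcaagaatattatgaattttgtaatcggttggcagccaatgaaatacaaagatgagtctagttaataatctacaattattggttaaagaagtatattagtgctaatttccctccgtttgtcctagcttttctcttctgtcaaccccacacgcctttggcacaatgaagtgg
FGA: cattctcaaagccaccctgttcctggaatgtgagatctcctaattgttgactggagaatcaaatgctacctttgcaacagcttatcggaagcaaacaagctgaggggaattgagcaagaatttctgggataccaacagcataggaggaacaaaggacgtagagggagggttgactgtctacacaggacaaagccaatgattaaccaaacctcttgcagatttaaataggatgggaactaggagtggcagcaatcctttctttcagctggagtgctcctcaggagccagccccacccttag
FGB: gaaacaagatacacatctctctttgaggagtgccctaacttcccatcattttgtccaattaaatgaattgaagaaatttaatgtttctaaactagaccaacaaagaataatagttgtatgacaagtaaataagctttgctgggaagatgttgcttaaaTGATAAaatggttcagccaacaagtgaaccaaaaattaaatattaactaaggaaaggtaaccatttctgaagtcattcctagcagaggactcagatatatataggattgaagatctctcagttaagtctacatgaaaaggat
FGG: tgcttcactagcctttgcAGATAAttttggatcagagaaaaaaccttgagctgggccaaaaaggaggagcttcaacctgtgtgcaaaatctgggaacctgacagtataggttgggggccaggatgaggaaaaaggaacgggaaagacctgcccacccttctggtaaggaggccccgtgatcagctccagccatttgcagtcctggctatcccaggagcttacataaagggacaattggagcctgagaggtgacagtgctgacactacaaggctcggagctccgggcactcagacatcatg
C5: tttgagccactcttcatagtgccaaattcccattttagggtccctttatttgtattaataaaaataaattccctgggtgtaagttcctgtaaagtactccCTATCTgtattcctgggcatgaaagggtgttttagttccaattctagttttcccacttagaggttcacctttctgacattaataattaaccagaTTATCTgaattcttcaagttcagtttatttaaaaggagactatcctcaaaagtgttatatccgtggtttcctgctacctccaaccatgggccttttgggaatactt
The windows lie at chr4:73404037-73404336 (plus strand, ALB), chr4:154590693-154590992 (minus strand, FGA), chr4:154562730-154563029 (plus strand, FGB), chr4:154612607-154612906 (minus strand, FGG) and chr9:121050226-121050525 (minus strand, C5). RefSeq lists 2 starts for FGB and for C5. The window shown for FGB is that of the first, and the second FGB window overlaps it. For C5 the window shown is that of the start farther along the gene, since the other C5 window held no GATA word.

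A GATA word stood 224 bases before the start of ALB, 92 before that of FGB and 232 before that of FGG, counting from its first base. The FGA window held none. The C5 window held GATA words at 150 and 56 bases before the start. Of all 35116 promoter windows in the table, 25.0% held a GATA word. Among tested plasma protein genes, 18 had an entry, with 26 windows in all, of which 6 held a GATA word. These 6 belong to 5 genes, ALB, FGB, FGG and C5 among them, and the 2 FGB windows hold the same word. The windows shown therefore do not stand for the other genes, and no excess of GATA words is read from them. These matches describe the letters only, and binding was not measured on these arrays.

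FGB, the beta chain, rose in Caco-2 while FGG, the gamma chain, fell. FGB read 11.25 and 11.05 in Caco-2 shRNA against 9.79 and 9.56 in Caco-2 control on the log2 scale, a 2.78-fold rise (log2 change 1.47, SE 0.15, limma adjusted p = 7.44e-04). Its other probe set read 10.80 and 10.65 against 9.62 and 9.66. FGG, with a single probe set, read 13.67 and 13.64 in Caco-2 shRNA against 14.39 and 14.20 in control, which left 64.2% (log2 change -0.64, SE 0.09, limma adjusted p = 0.00221).

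The alpha chain gave no single answer, because its probe sets disagreed. The brighter FGA probe set read 9.94 and 9.85 in Caco-2 shRNA against 9.98 and 10.12 in control (log2 change -0.15, SE 0.09, limma adjusted p = 0.235). The dimmer read 6.97 and 6.64 against 5.29 and 5.52, a log2 change of 1.40 (SE 0.24, limma adjusted p = 0.00589 over probe sets). With the mean of both standing for the gene, the FGA change was 0.62 (limma adjusted p = 0.0204). In HUG1N all fibrinogen probe sets lay at or under 2.77. Across the plasma protein genes, 11 further probe sets passed the filter, of which 10 changed in Caco-2 with the same sign as the probe set standing for the gene, and that of FGA with the opposite sign.

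**Figure D3:**
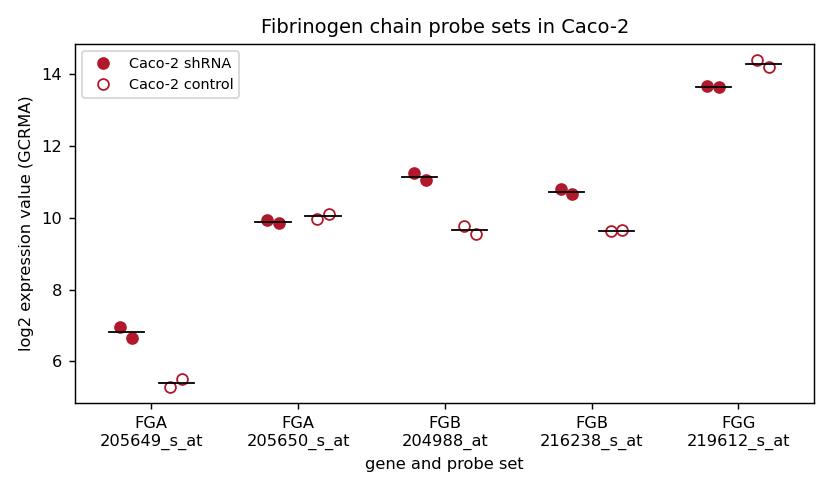
Log2 expression value (vertical axis) of each fibrinogen probe set (horizontal axis) in Caco-2; each point is an array, filled for shRNA and open for control, with a bar at each group's mean. Both FGB probe sets and the dimmer FGA probe set sit higher in shRNA than in control, and FGG sits lower.

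Antithrombin (SERPINC1), the inhibitor of thrombin, fell below the detection level. SERPINC1 read 3.52 and 2.99 in Caco-2 shRNA against 6.82 and 6.49 in Caco-2 control on the log2 scale, at least 6.29-fold lower (limma adjusted p = 7.15e-05). SERPINC1 entered the test through the Caco-2 control arrays alone, so a difference was fixed by the filter. KNG1, kininogen, the precursor of bradykinin, read 9.95 and 9.53 in Caco-2 shRNA against 10.42 and 10.25 in control. The shRNA arrays were the lower ones, but the log2 change of -0.59 (95% interval -1.12 to -0.06) was not called (limma adjusted p = 0.0757). It was called with HUG1N control replicate 1 or 2 left out (limma adjusted p = 0.0377 either way), and another KNG1 probe set was called at -1.18 (SE 0.24, limma adjusted p = 0.0121 over probe sets).

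SERPINA1, alpha-1-antitrypsin, the inhibitor of neutrophil elastase, read 13.66 and 13.36 in Caco-2 shRNA against 14.20 and 14.04 in Caco-2 control on the log2 scale. It fell to 65.4% of control (log2 change -0.61, SE 0.14, limma adjusted p = 0.0180), a call lost without Caco-2 shRNA replicate 2 (limma adjusted p = 0.0832) or Caco-2 control replicate 1 (0.0966). ITIH2 is a heavy chain of the inter-alpha-trypsin inhibitor family that is attached to hyaluronan. Among the called falls of the plasma protein genes in Caco-2, its bound was the largest, beyond the measured fall of HP. ITIH2 read 3.63 and 3.60 in Caco-2 shRNA against 8.19 and 8.36 in control, at least 19.3-fold lower (limma adjusted p = 7.62e-07). It entered the test through the Caco-2 control arrays alone, so a difference was fixed by the filter. Its relatives ITIH1, ITIH3 and ITIH4, neighbours on chromosome 3, were among the genes over 4 on no array.

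Fibronectin (FN1), found both in plasma and in the matrix, read 13.23 and 13.16 in Caco-2 shRNA against 14.69 and 14.59 in Caco-2 control on the log2 scale. It fell to 36.7% of control (log2 change -1.44, SE 0.13, limma adjusted p = 5.42e-04), and its 3 other probe sets over log2 4 in both groups changed by -1.49 to -1.88. Angiotensinogen (AGT), the source of the angiotensins, went the other way. AGT read 13.65 and 13.57 in Caco-2 shRNA against 12.79 and 12.79 in control, a 1.76-fold rise (log2 change 0.82, SE 0.15, limma adjusted p = 0.00665).

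AHSG, fetuin-A, a carrier that keeps calcium phosphate in solution, read 14.78 and 14.63 in Caco-2 shRNA against 15.28 and 15.12 in Caco-2 control on the log2 scale. The shRNA arrays were the lower ones, but the log2 change of -0.49 (SE 0.36) was not called with all 4 groups in the fit (limma adjusted p = 0.333). Its SE there pools the spread of the HUG1N arrays, which read 3.28 and 4.38 in shRNA and 2.28 and 2.87 in control. With Caco-2 fitted alone the AHSG change was called (limma adjusted p = 0.0343), and another probe set, at 13.67 and 13.45 against 14.40 and 14.40, was called with all groups (log2 change -0.84, SE 0.11, limma adjusted p = 0.00242 over probe sets). In HUG1N, AHSG was called higher (limma adjusted p = 0.0304) on values near the detection level, with 1 array over 4, so no size is given. With values under 4 set to 4 the log2 change was 0.19 (limma adjusted p = 0.295), and the other probe set stayed between 2.14 and 2.38 on the HUG1N arrays. The HUG1N call was also lost without any 1 of the 4 Caco-2 arrays (limma adjusted p = 0.0555 to 0.0565), without HUG1N shRNA replicate 2 (0.0810) or HUG1N control replicate 1 (0.149).

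The complement genes split within Caco-2, where C5, CFI, C4BPA and C4BPB rose and C3 and CFB fell. C5, whose fragments attract leukocytes and start the membrane attack complex, was the plasma protein gene with the largest called rise. C5 read 7.63 and 6.995 in Caco-2 shRNA against 2.52 and 2.29 in Caco-2 control on the log2 scale, at least 9.92-fold higher (limma adjusted p = 2.31e-05). C5 entered the test through the Caco-2 shRNA arrays alone, so a difference was fixed by the filter. All HUG1N arrays read 2.10.

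C4b-binding protein slows complement, and its alpha and beta chains are encoded by the neighbouring genes C4BPA and C4BPB on chromosome 1. C4BPA read 8.73 and 8.61 in Caco-2 shRNA against 7.51 and 7.90 in Caco-2 control on the log2 scale (change 0.97, SE 0.23, limma adjusted p = 0.0188). C4BPB read 10.13 and 10.22 in Caco-2 shRNA against 9.55 and 9.76 in control, a 1.44-fold rise (log2 change 0.52, SE 0.09, limma adjusted p = 0.00645). Both chains thus rose in Caco-2, the C4BPA call being lost without Caco-2 shRNA replicate 1 (limma adjusted p = 0.0917), Caco-2 shRNA replicate 2 (0.0650) or Caco-2 control replicate 1 (0.101). CFI, the protease that cuts C3b and C4b, read 7.38 and 6.28 in Caco-2 shRNA against 5.88 and 5.72 in control. Its log2 change of 1.03 (SE 0.32) sat at the threshold (limma adjusted p = 0.0475), and it was 0.48 without Caco-2 shRNA replicate 1 and 1.57 without Caco-2 shRNA replicate 2. The change was not called with Caco-2 fitted alone or with no filter on low values. The CFI call was lost without Caco-2 control replicate 1 (0.129), Caco-2 control replicate 2 (0.177) or any HUG1N array (0.0783 to 0.0799).

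In HUG1N, limma called 3 of the 23 tested genes lower, C3, C4BPB and RBP4, and 2 higher, CFB and AHSG. Over all genes tested, 23.9% were called lower and 24.7% higher in that line, 48.7% in all. As 18 of the 23 genes had no HUG1N array over 4, nothing is read from this count beside those shares. The median change of the 23 genes was 0, as most of them lay at the lowest values. Without any 1 of the 4 Caco-2 arrays, 1 gene was called higher in HUG1N, and without HUG1N control replicate 1, 3 were.

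C3, the central complement protein, had log2 values of 11.08 and 11.16 in HUG1N shRNA against 11.83 and 12.03 in HUG1N control, and of 11.33 and 11.33 in Caco-2 shRNA against 11.79 and 11.71 in Caco-2 control. The shRNA arrays were below the control arrays in both lines. C3 fell to 57.1% in HUG1N (log2 change -0.81, SE 0.09, limma adjusted p = 7.72e-04) and to 74.7% in Caco-2 (log2 change -0.42, SE 0.09, limma adjusted p = 0.0116). The Caco-2 call was lost without Caco-2 shRNA replicate 1 (limma adjusted p = 0.0513) or Caco-2 control replicate 1 (0.0669). The control levels of C3 in the lines differed by 0.18 (95% interval -0.03 to 0.39, limma adjusted p = 0.103).

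CFB, complement factor B of the alternative pathway, moved in opposite directions. Its log2 values were 12.48 and 12.44 in HUG1N shRNA against 11.15 and 11.07 in HUG1N control, and 8.36 and 7.87 in Caco-2 shRNA against 9.04 and 8.70 in Caco-2 control. CFB rose 2.55-fold in HUG1N (log2 change 1.35, SE 0.18, limma adjusted p = 0.00173) and fell to 59.1% in Caco-2 (log2 change -0.76, SE 0.18, limma adjusted p = 0.0200). The Caco-2 call was lost without Caco-2 shRNA replicate 2 (limma adjusted p = 0.0669) or Caco-2 control replicate 1 (0.103), and with Caco-2 fitted alone (0.0876).

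C4BPB showed the reverse pair of directions. It read 9.34 and 9.26 in HUG1N shRNA against 10.68 and 10.73 in HUG1N control, beside the rise in Caco-2 given above. In HUG1N it fell to 37.7% of control (log2 change -1.41, SE 0.09, limma adjusted p = 1.66e-04). C4BPA, its partner chain, was over 4 on no HUG1N array.

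The difference between the shRNA effects, HUG1N minus Caco-2, was called lower for 5 of the 23 tested genes and higher for 12, against 22.7% and 22.2% of all genes tested, 44.9% in all. For genes at the lowest values in HUG1N this difference is the Caco-2 change with its sign turned, so only genes over 4 on at least 2 arrays of both lines are described. CFB had a difference of 2.11 (SE 0.26, limma adjusted p = 0.00161) and C4BPB of -1.93 (SE 0.13, limma adjusted p = 2.06e-04). For C3 the difference was -0.39 (SE 0.12, limma adjusted p = 0.0447). The C3 call was lost in 7 of the 8 fits that left out an array, with limma adjusted p between 0.0650 and 0.126. RBP4, over 4 on both control arrays and on 1 shRNA array of HUG1N, had a difference of -2.10 (SE 0.22, limma adjusted p = 8.95e-04) with its HUG1N shRNA values at the detection level.

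**Figure D4:**
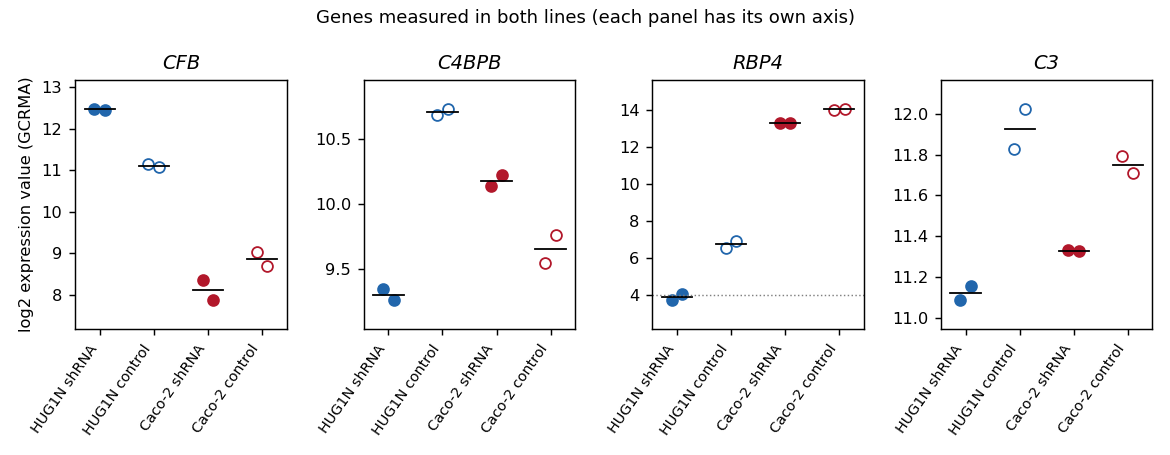
Log2 expression values of CFB, C4BPB, RBP4 and C3 on the 8 arrays, by group (HUG1N shRNA, HUG1N control, Caco-2 shRNA, Caco-2 control); each point is an array, bars are group means, each panel has its own log2 axis that does not start at 0, and the dotted line marks log2 4. CFB is higher in shRNA than control in HUG1N and lower in Caco-2, C4BPB is the other way round, and C3 and RBP4 are lower in shRNA in both lines.

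Markers of the labelled tissues were present. Of 10 intestinal markers, 9 were over log2 4 on at least 1 Caco-2 array and 7 on at least 1 HUG1N array, and of 9 gastric markers, 3 were in Caco-2 and 7 in HUG1N. Of 10 hepatocyte markers other than plasma proteins, all of them also in the list of hepatocyte enzymes below, CPS1, ASGR1 and ASGR2 were over 4 in Caco-2, CYP3A4 and CYP2E1 on some HUG1N arrays, and ARG1, TAT, CYP7A1, SLC10A1 and SLCO1B1 on none. The log2 of their summed level was 5.97 to 6.62 in HUG1N shRNA and 5.85 to 6.10 in HUG1N control, and 12.01 to 12.14 in Caco-2 shRNA and 13.13 to 13.16 in Caco-2 control. The gastric markers summed to 14.47 to 14.72 in HUG1N shRNA, 15.14 to 15.23 in HUG1N control, 8.57 to 8.77 in Caco-2 shRNA and 11.89 to 11.97 in Caco-2 control. The intestinal markers summed to 14.66 to 14.69, 14.63 to 14.69, 13.45 to 13.50 and 13.86 to 13.93 in the same order. This sum was thus higher in HUG1N, the gastric line, than in Caco-2. General epithelial markers, 5 of 5 over 4 in both lines, summed to 17.06 to 17.07, 16.41 to 16.46, 17.27 to 17.31 and 16.44 to 16.48. In Caco-2 shRNA the hepatocyte, gastric and intestinal sums were thus lower than in control, and the epithelial sum was higher. Such a sum follows its brightest genes. Of the tested intestinal markers, 3 were called lower in Caco-2, 1 higher and 5 not. Of the gastric markers, 2 were called lower, 0 higher and 5 not. Over all genes tested, the shares were 19.2% lower and 19.5% higher. Fibroblast markers, 2 of 10 of them over 4 in Caco-2 (COL1A1 and LUM) and 1 in HUG1N, summed to 5.88 to 6.08 in HUG1N shRNA, 5.89 to 5.94 in HUG1N control, 7.84 to 7.98 in Caco-2 shRNA and 5.97 to 6.05 in Caco-2 control, while PDGFRA, DCN, COL1A2 and COL3A1 stayed under 4 throughout. Of 8 immune markers, CD14 and LYZ were over 4 in Caco-2 and LYZ in HUG1N, and the sum was 12.92 to 13.07, 12.39 to 12.46, 7.71 to 7.85 and 9.37 to 9.77 in the same order of groups. PTPRC, the marker of all leukocytes, stayed under 4. The gap between 3′ and 5′ probe sets of ACTB was 3.73 ± 0.06 in HUG1N shRNA, 2.51 ± 0.23 in HUG1N control, 1.55 ± 0.13 in Caco-2 shRNA and 1.92 ± 0.02 in Caco-2 control (SD, n = 2 each, log2 units). The hybridisation controls averaged 10.36 ± 0.10 in HUG1N shRNA, 12.28 ± 0.09 in HUG1N control, 11.86 ± 0.07 in Caco-2 shRNA and 11.97 ± 0.14 in Caco-2 control (SD, n = 2 each, log2 units), lowest in HUG1N shRNA, where the ACTB gap was widest. The part of these shifts in the results was not tested. Replicate arrays correlated at r = 0.995 to 0.997 across tested genes.

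Further genes of the same biology were read from 5 lists. In their medians a gene with no array over 4 in 1 group stands at its bound, and a gene with no fold at 0. The first held 45 other plasma proteins of liver, of which 37 were on the array and 10 were tested. In Caco-2, 5 were called lower and 1 higher, against 19.2% and 19.5% of all genes tested, with a median log2 change of -0.68. SERPINF1, an inhibitor of vessel growth, read 8.11 and 8.16 in shRNA against 8.90 and 8.94 in control (log2 change -0.79, SE 0.06, limma adjusted p = 2.86e-04). SERPINF2, which inhibits plasmin, read 3.76 and 3.97 against 5.93 and 5.70, at least 3.52-fold lower (limma adjusted p = 3.52e-04). SERPINF2 entered the test through the Caco-2 control arrays alone, so a difference was fixed by the filter. C1S, a protease of the classical complement pathway, read 4.91 and 4.34 against 6.97 and 7.32 (log2 change -2.52, SE 0.21, limma adjusted p = 3.63e-04). SERPINA6, the carrier of cortisol, fell to 50.1% of control (log2 SE 0.11, limma adjusted p = 9.98e-04).

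In HUG1N, 3 of these 10 were called lower and 1 higher, against 23.9% and 24.7% of all genes tested (median log2 change 0). As 6 of the 10 had no fold in HUG1N, nothing is read from this count or median. AZGP1, zinc-alpha-2-glycoprotein, read 2.11 and 2.08 in HUG1N shRNA against 5.97 and 4.41 in HUG1N control, at least 2.28-fold lower (limma adjusted p = 0.00227). AZGP1 entered the test through the HUG1N control arrays alone, so it had to differ. SELENOP, the selenium carrier of plasma, read 11.36 and 11.70 against 10.06 and 9.29 and rose by 1.85 (SE 0.30, limma adjusted p = 0.00357). ANG, angiogenin, a secreted ribonuclease, fell by 0.60 on the log2 scale (SE 0.11, limma adjusted p = 0.00559). C1S was also called lower (limma adjusted p = 0.0336) with no HUG1N array over log2 4, so no size is given.

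The second list held transcription factors of liver, 13 of 20 on the array tested, GATA6 among them. In Caco-2, 8 were called lower and 3 higher, against 19.2% and 19.5% of all genes tested (median log2 change -0.42). ZBTB20, a repressor of AFP in mouse liver, read 8.54 and 8.32 in Caco-2 shRNA against 6.20 and 6.26 in control and rose by 2.20 (SE 0.11, limma adjusted p = 4.17e-05). NR0B2, the bile acid-induced corepressor SHP, fell by 1.64 on the log2 scale (SE 0.21, limma adjusted p = 0.00180). CEBPB, a mediator of the acute phase response, rose by 0.45 (SE 0.07, limma adjusted p = 0.00316). GATA4, a relative of GATA6, was called lower (limma adjusted p = 0.00218) with no Caco-2 array over log2 4, so no size is given.

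In HUG1N, 6 of the 13 transcription factors were called lower and 1 higher, against 23.9% and 24.7% of all genes tested (median log2 change -0.27). CEBPG fell by 0.99 (SE 0.08, limma adjusted p = 2.66e-04) and CEBPB by 0.64 (SE 0.07, limma adjusted p = 6.70e-04) on the log2 scale. NR5A2, a nuclear receptor of gut and liver, read 3.81 and 3.42 in HUG1N shRNA against 5.94 and 5.26 in control, at least 3.03-fold lower (limma adjusted p = 0.00161). FOXA1, a pioneer factor of endoderm, rose by 0.73 (SE 0.12, limma adjusted p = 0.00321).

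The third list held genes of interleukin-6 and acute phase signalling, 12 of 18 on the array tested. In Caco-2, 2 were called lower and 2 higher, against 19.2% and 19.5% of all genes tested (median log2 change 0). The transcription factor STAT3 rose by 0.67 (SE 0.09, limma adjusted p = 0.00208) and the shared receptor subunit IL6ST by 0.38 (SE 0.09, limma adjusted p = 0.0216). The kinase TYK2 fell by 0.55 on the log2 scale (SE 0.08, limma adjusted p = 0.00288), and the interleukin-6 receptor IL6R, at 3.97 and 4.58 in Caco-2 shRNA against 5.60 and 5.46 in control, fell by 1.25 (SE 0.21, limma adjusted p = 0.00551). In HUG1N, 6 were called lower and the other 6 were not called, against 23.9% lower and 48.7% either way over all genes tested (median log2 change -0.44). IL6R read 4.72 and 4.74 in HUG1N shRNA against 7.71 and 7.37 in control and fell by 2.81 on the log2 scale (SE 0.21, limma adjusted p = 2.44e-04). The receptor antagonist IL1RN fell by 0.99 (SE 0.09, limma adjusted p = 4.03e-04) and TYK2 by 0.51 (SE 0.08, limma adjusted p = 0.00274). JAK2, a kinase of cytokine receptors, was at least 1.64-fold lower (limma adjusted p = 0.00243), but entered the test through the HUG1N control arrays alone and so had to differ. IL6 itself and SOCS3 were over 4 on no array.

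The fourth list held receptors and partners of these plasma proteins, 16 of 30 on the array tested. In Caco-2, 2 were called lower and 6 higher, against 19.2% and 19.5% of all genes tested (median log2 change 0.12). PLAUR, the receptor for urokinase, read 8.38 and 8.55 in Caco-2 shRNA against 5.18 and 5.29 in control and rose by 3.22 (SE 0.12, limma adjusted p = 1.80e-05). LRP2, megalin, an uptake receptor for plasma carriers, read 7.30 and 6.88 against 9.81 and 10.06 and fell by 2.85 on the log2 scale (SE 0.18, limma adjusted p = 1.20e-04). CD55, which protects cells from complement, rose by 1.32 (SE 0.08, limma adjusted p = 1.31e-04), and the integrin ITGB5 rose by 0.68 (SE 0.07, limma adjusted p = 8.27e-04). In HUG1N, 6 were called lower and 2 higher, against 23.9% and 24.7% of all genes tested (median log2 change -0.08). FCGRT, the receptor that recycles albumin and antibodies, read 7.06 and 6.88 in HUG1N shRNA against 8.03 and 8.27 in control and fell by 1.18 on the log2 scale (SE 0.11, limma adjusted p = 4.31e-04). The transferrin receptor TFR2 fell by 1.28 (SE 0.13, limma adjusted p = 6.28e-04), CD55 by 0.59 (SE 0.08, limma adjusted p = 0.00219) and the integrin ITGAV by 0.61 (SE 0.10, limma adjusted p = 0.00344).

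The fifth list held enzymes and receptors of hepatocytes that are not plasma proteins, 9 of 21 on the array tested. In Caco-2, 5 were called lower and 1 higher, against 19.2% and 19.5% of all genes tested (median log2 change -0.38). TDO2, which starts tryptophan breakdown, read 2.08 on both Caco-2 shRNA arrays against 5.56 and 5.48 in control, at least 2.87-fold lower (limma adjusted p = 1.27e-06). TDO2 entered the test through the Caco-2 control arrays alone, so a difference was fixed by the filter. CPS1, the first enzyme of the urea cycle, read 9.19 and 8.76 against 11.92 and 11.97 and fell by 2.97 on the log2 scale (SE 0.27, limma adjusted p = 5.32e-04). FBP1, of gluconeogenesis, fell by 1.38 (SE 0.16, limma adjusted p = 0.00113), and HGD, of tyrosine breakdown, rose by 0.54 (SE 0.07, limma adjusted p = 0.00245). In HUG1N, 1 was called lower and 1 higher, against 23.9% and 24.7% of all genes tested (median log2 change 0). As 5 of the 9 had no fold in HUG1N, nothing is read from this count or median. ASS1, of the urea cycle, fell by 0.67 on the log2 scale (SE 0.07, limma adjusted p = 8.41e-04), and HGD rose by 0.69 (SE 0.07, limma adjusted p = 7.67e-04).

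**Figure D5:**
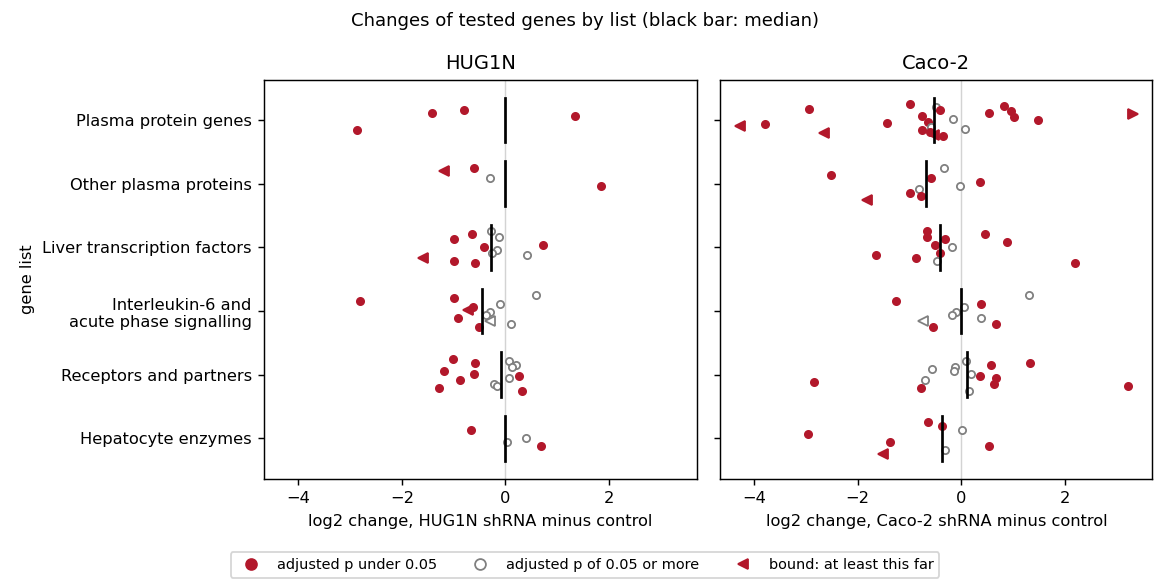
Log2 change of each tested gene, shRNA minus control, in HUG1N (left) and Caco-2 (right), by list, with filled points for a limma adjusted p under 0.05, open points for the others, triangles for bounds and a black bar at each list's median; genes with no fold in a line are not drawn and count as 0 in its median. The median of the plasma protein genes lies at -0.53 in Caco-2 and at 0 in HUG1N, where 4 of the 23 are drawn.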

How the data were processed

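The values the authors deposited are on a log2 scale and come from GCRMA, per the submitters' processing notes; its version is not given in the sources used here. GCRMA corrects background by probe composition, equalises the arrays and sets a floor, so changes of dim genes have no fixed size. The columns were used without further scaling, and 0 columns of other samples were used. Array medians ran from 4.73 to 4.98.

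Gene names came from the platform's annotation. It gave a single gene symbol for 19070 of 22277 probe sets, several for 1043 and none here for 2164, and 19058 matched a current symbol by Entrez identifier. A gene was tested if over log2 4 on at least 2 of 8 arrays, which kept 7696 of 11963 genes. Tests used limma 3.58.1 in R 4.3.3 (means of 4 groups, eBayes, 4 residual and 2.17 prior degrees of freedom, Benjamini-Hochberg adjustment over all genes tested), called at an adjusted p under 0.05. A change against a group with no array over log2 4 is stated as a bound, or with no size where the brighter group averaged under 4 too. The fit was tested on simulated data. The 38 genes and the 5 lists were chosen with earlier results of these data known. All of the 35 genes on the array are described, with up to 4 called genes of smallest p per list and line. Alternatives covered the filter, normalization, floor, variance model, samples in the fit, probe set, a minimum fold, a replicate block and leaving out each array. Promoter windows came from RefSeq on GRCh38.p14. Precision is limited by how few arrays there are.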

Additional observations from a re-analysis of the deposited data

Results flagged for a closer look

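The shRNA minus control change of 4 genes of complement and retinol transport differed between the lines. The test was limma's test of the difference itself, HUG1N minus Caco-2. The HUG1N shRNA arrays also had lower hybridisation controls (10.36 against 12.28 in HUG1N control) and a wider ACTB gap (3.73 against 2.51). These shifts go with the shRNA in HUG1N, and their part in the differences was not tested. GATA6 was not called lower in HUG1N (limma adjusted p = 0.0879). The difference was 2.11 on the log2 scale for CFB, which rose in HUG1N and fell in Caco-2, and -1.93 for C4BPB, which fell in HUG1N and rose in Caco-2. It was -2.10 for RBP4, which fell in both lines, and lay at the detection level in HUG1N shRNA. It was -0.39 for C3, which fell in both lines, and this call was lost in 7 of the 8 fits that left out an array.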

How the results depend on the processing

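With a 2-fold minimum, 6 plasma protein genes were called lower and 3 higher in Caco-2, and the calls over all genes were 903 in HUG1N, 742 in Caco-2, 1404 for the difference between the effects and 3534 between the control lines. In HUG1N, 1 gene was called higher with no filter, with values under log2 4 set to 4, with each line fitted alone, and with each line alone on genes over 4 on at least 2 of its own arrays, the last chosen after seeing the data. Leaving out each array gave, in Caco-2, 9 to 13 genes lower, 4 to 5 higher and 1895 to 2974 calls over all genes, and in HUG1N 3 lower in every fit, 1 to 3 higher and 3026 to 3603 over all genes. FGA turned to 0.62 with the mean of its probe sets. With no filter on low values, the Caco-2 calls of SERPINA1, TTR, CFB, CFI and C4BPA were lost. The TTR call was also lost with a trended and robust variance model. Single-gene values kept direction and call in 84 of 94 alternatives in HUG1N and in 382 of 435 in Caco-2, where 44 lost the call, 8 gained it and 1 turned; for the difference between the effects it was 57 of 68, and between the control lines 66 of 68. The single-gene values covered 5 genes in HUG1N, 23 in Caco-2, and 4 each for the difference and the control lines. Same-numbered arrays deviated together at r = -0.08 in HUG1N and 0.13 in Caco-2 over 6505 genes, so the numbers were not taken as pairs. With the replicate number as a block, 12 genes were called lower and 6 higher in Caco-2, TTR had a limma adjusted p of 0.0520 and the C3 difference of 0.0642, and 2732 genes were called over all in Caco-2; no other call among the single genes tried changed. With 2 arrays a group, changes near the lowest value of 2.08 are bounds only.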
